A study of Mus musculus with 9 samples.

Results

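The genes described here are the 5 subunits of the transcription factor NF-κB (Nfkb1, Nfkb2, Rela, Relb and Rel), 3 inhibitors that bind these subunits (Nfkbia, Nfkbib and Nfkbie), the ubiquitin editor Tnfaip3 and the nuclear co-regulator Bcl3. They were chosen by gene name, and each name matched 1 entry, which gave 10 of the 54532 listed genes. RNA of B.END3 cells, an endothelial cell line from mouse brain, was sequenced after photodynamic therapy (PDT), in which a photosensitizer makes reactive oxygen species under light. Both treated groups received porfimer sodium, a porphyrin photosensitizer, at 300 µg/mL for 90 min and then 635 nm laser light at 100 mW/cm2. The light dose was 10 J/cm2 in Ep1 and 20 J/cm2 in Ep2, with 3 libraries in each group. Ctrl was named as the control, with no photosensitizer or light listed for it. If its cells received neither, Ctrl differed from Ep1 and Ep2 in the photosensitizer and in the light together. The interval between the light and the lysis was not given in the sources used here. All libraries came from 1 cell line, and nothing states that replicates were separate cultures, so p-values measure the spread between these libraries, which may be technical. The comparisons of Ep1 and of Ep2 with Ctrl address how the cells responded to PDT at each dose, and the comparison of Ep2 with Ep1 addresses the dose.

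NF-κB dimers of the Rel family are held in the cytoplasm by IκB proteins. In the canonical pathway, a kinase complex marks the IκB proteins for degradation, so that dimers such as p50 with RelA enter the nucleus. In the non-canonical pathway, p100, the product of Nfkb2, is processed to p52, which acts with RelB. Several genes of the pathway, among them Nfkbia, Nfkb2 and Tnfaip3, are themselves known targets of NF-κB and close feedback loops. In endothelial cells the pathway is known for switching on adhesion molecules and chemokines during inflammation. All of these steps act on proteins, and the values below are levels of RNA.

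Binding sites for NF-κB follow the κB decamer consensus. It was searched on both strands in promoter windows of 300 bases (250 before and 50 after the start of the transcript) from RefSeq on GRCm38.p6. A window was listed for 8 of the 10 genes, and Nfkb1 and Relb had none. The consensus was found for 6 of these 8 genes (Nfkb2, Rel, Nfkbia, Nfkbie, Tnfaip3 and Bcl3), against 1388 of 27025 genes with a window (5.14%) and 1480 of 32851 windows (4.51%). No match lay in the windows of Rela and Nfkbib, which says only that these letters do not occur there. The match of Bcl3 lay behind the start and is not shown. The stretches below show the matches nearest to the first start of the other 5 genes, written 5′ to 3′ on the strand of the gene, with the matched bases in capitals. For Nfkb2 there are 2 stretches, which share bases because their matches lie close together. The runs of 11 capitals in the first Nfkb2 stretch and in Rel hold matches that overlap on the 2 strands. Starts are those of RefSeq. The Tnfaip3 gene listed with the FPKM values begins further upstream, at 19015657 on the - strand, so its stretch lies inside that listed gene. A match is a description of the letters and does not show that NF-κB was bound.
Nfkb2, 39 bases before the start, chr19:46304678-46304728 (+): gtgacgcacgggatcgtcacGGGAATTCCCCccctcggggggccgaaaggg
Nfkb2, 11 bases before the start, chr19:46304706-46304736 (+): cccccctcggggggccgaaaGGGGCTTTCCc
Rel, 92 bases before the start, chr11:23771031-23771081 (-): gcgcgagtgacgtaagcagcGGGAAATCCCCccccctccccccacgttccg
Nfkbia, 29 bases before the start, chr12:55492648-55492696 (-): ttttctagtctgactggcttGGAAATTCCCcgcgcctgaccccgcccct
Nfkbie, 106 bases before the start, chr17:45555574-45555623 (+): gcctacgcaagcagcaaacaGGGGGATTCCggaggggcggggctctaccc
Tnfaip3, 12 bases before the start, chr10:19015411-19015442 (-): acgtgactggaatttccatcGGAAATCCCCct

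Values are FPKM as the authors deposited them, in which the fragments of a gene are divided by its length and by the size of the library. The fragments behind them could be recovered and ranged from 16240688 to 19509225 per library. Differences are given in log2(FPKM + 1) with their standard error (SE) from limma, fitted to all 9 libraries and to the 11727 genes with at least 1 FPKM in at least 3 libraries, and a gene was called at a Benjamini-Hochberg adjusted p-value below 0.05. Ep1 and Ep2 were compared with the same Ctrl libraries, so these comparisons are not independent. Ep2 replicate 1 stood apart from the other Ep2 libraries, with a chi-square over its degrees of freedom of 10.06 and 15.25 against replicates 2 and 3, while these differed by 5.0 and pairs within Ctrl or Ep1 by at most 5.66. The defining markers of endothelial cells were mostly absent, against the label of the line. Of 12 endothelial markers, 10 (Pecam1, Kdr and Cldn5 among them) were below 1 FPKM in every library, Erg, Sox17 and Emcn were at 0 in all of them, and only Flt1 passed the filter. The summed level of the list was 7.98 to 8.37 FPKM in Ctrl, 8.38 to 9.48 in Ep1 and 11.9 to 12.8 in Ep2. Most of this sum was Flt1, with means of 6.9, 7.25 and 10.9 FPKM in Ctrl, Ep1 and Ep2. Cdh5 had means of 0.857, 0.979 and 0.753 FPKM. Of 5 epithelial markers, 4 passed the filter, and their list, led by the keratin genes Krt8, Krt18 and Krt19, summed to 1030 to 1080 FPKM in Ctrl, 937 to 1040 in Ep1 and 1160 to 1370 in Ep2. The sum was almost only keratin genes. Epcam had means of 0.812, 0.819 and 1.77 FPKM in Ctrl, Ep1 and Ep2, and Cdh1 was at most 0.103 FPKM in any library. Of the leukocyte and macrophage markers 1 of 6 (Cd14) passed the filter, of the fibroblast markers 1 of 5 (Col1a1) and of the mural markers 1 of 5 (Des). The endothelial and epithelial sums were highest in Ep2, and their part in the results below was not tested.

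By FPKM in Ctrl, transcripts of the inhibitor Nfkbia and of the subunits Nfkb2 and Rela were the most abundant of the 10 genes. The means in Ctrl were 49.3 FPKM for Nfkbia, 39.4 for Nfkb2, 34.5 for Rela, 18.2 for Nfkbib and 11.3 for Nfkb1. They were followed by Relb at 8.11, Bcl3 at 7.33, Nfkbie at 4.90, Rel at 4.02 and Tnfaip3 at 0.736 FPKM. The ranges over the 3 Ctrl libraries of neighbours in this order did not overlap. Nfkbia lay above 90.5% of the tested genes, Nfkb2 above 87.7% and Rela above 85.6%, while Rel lay above 32.3% and Tnfaip3 above 1.44%. This order rests on the listed gene lengths. Nfkb1 is listed with 12061 bases and has a canonical transcript of 4704, whereas Nfkb2 is listed with 3289 and has a canonical transcript of 6754. Per kilobase of the canonical transcript, the level in Ctrl was 29.1 for Nfkb1, 29.1 for Nfkbib, 19.3 for Nfkb2, 34.8 for Rela and 50.7 for Nfkbia. On this scale Nfkb1 and Nfkbib stood above Nfkb2. The fragments are those behind the deposited values, and the exons they were counted on may differ from this transcript. The place of Nfkb2 among the most abundant genes, above or below Nfkb1 and Nfkbib, is therefore not settled. A ratio of FPKM between groups does not depend on the length of a gene, but log2(FPKM + 1) does for weak genes, through the pseudocount.

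**Figure D1:**
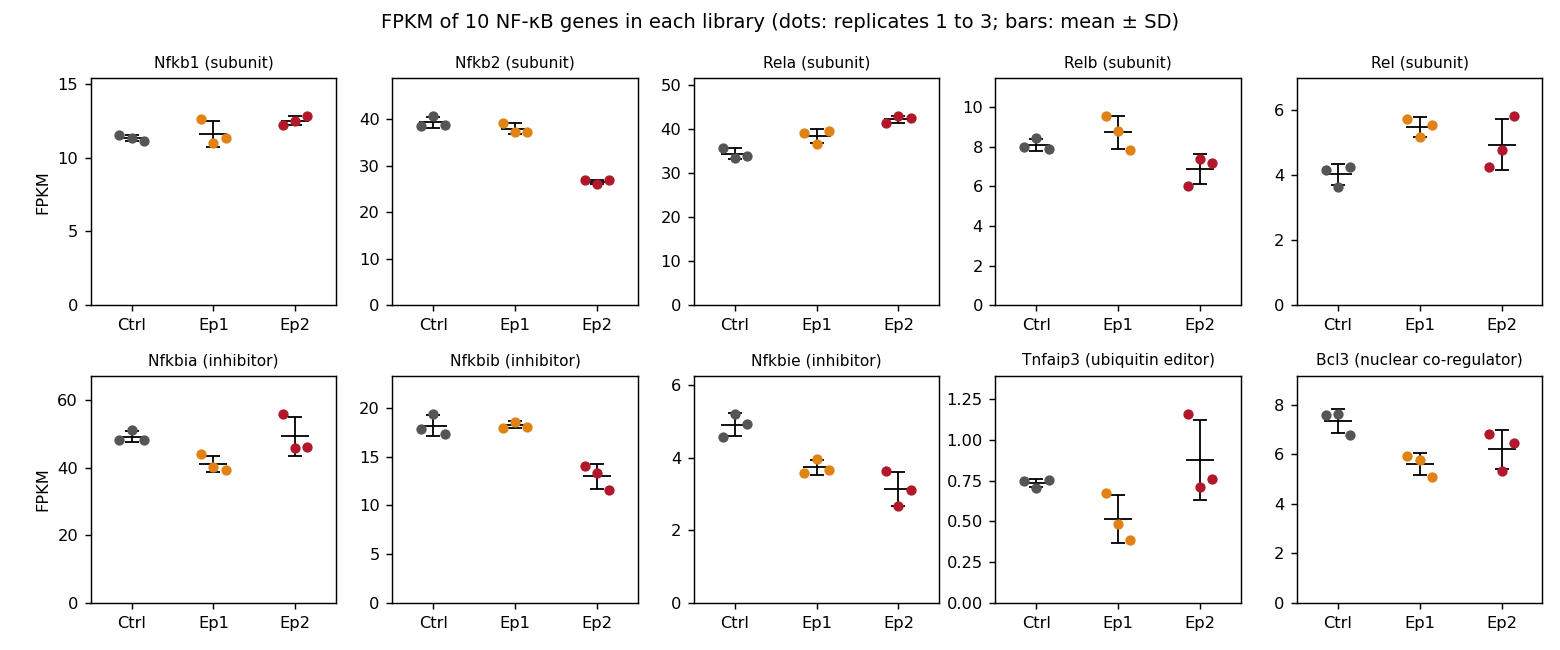
FPKM of each of the 10 genes (vertical axis, starting at 0 in each panel) in Ctrl, Ep1 and Ep2, with dots for replicates 1 to 3 and bars for the mean and SD. The 3 Ep2 libraries lie below all others for Nfkb2 and Nfkbib and above all others for Rela.

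Among the subunits, Nfkb2 fell and Rela rose in Ep2. Nfkb2 encodes p100, the precursor of p52, and lies at chr19:46304737-46312090 of GRCm38 (ENSMUSG00000025225, + strand). It measured 38.6, 40.7 and 38.8 FPKM in the Ctrl libraries, 39.3, 37.4 and 37.3 in those of Ep1 and 26.9, 26.1 and 26.9 in those of Ep2. The Ep2 libraries were all below the other 6, while Ctrl and Ep1 overlapped. The mean was 39.4 ± 1.16 (SD, n = 3) for Ctrl, 38.0 ± 1.14 for Ep1 and 26.6 ± 0.448 for Ep2, a difference of -32.3% between the means of Ep2 and Ctrl. On the log2 scale the difference of Ep2 from Ctrl was -0.55 (SE 0.0402, 95% interval -0.64 to -0.46, limma adjusted p = 9.68e-06). The difference of Ep1 from Ctrl was -0.05 (adjusted p = 0.439, interval -0.14 to 0.04), and that of Ep2 from Ep1 was -0.50 (adjusted p = 2.40e-05). The fall in Ep2 was called in each of the 6 fits that left out 1 library, with a log2 difference of -0.56 to -0.52.

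Rela encodes RelA (p65), the main activating subunit of the canonical pathway, and lies on the same chromosome at chr19:5637483-5648130 (ENSMUSG00000024927, + strand). It measured 35.8, 33.6 and 34.0 FPKM in the Ctrl libraries, 39.2, 36.7 and 39.6 in those of Ep1 and 41.4, 43.0 and 42.6 in those of Ep2. The 3 groups did not overlap, and their order followed the light dose. The mean was 34.5 ± 1.18 for Ctrl, 38.5 ± 1.58 for Ep1 and 42.3 ± 0.844 for Ep2 (SD, n = 3). Rela was higher in Ep2 than in Ctrl by 0.29 on the log2 scale (SE 0.0442, adjusted p = 0.000515 in limma), or 22.7% of the Ctrl mean. The difference of Ep1 from Ctrl was 0.15 (interval 0.05 to 0.25) and missed the threshold (adjusted p = 0.055). Of the 6 fits that left out 1 library, 1 called it, that without Ep1 replicate 2 (0.0497). Of 7 other fits, 2 called it, with a filter at 5 FPKM (0.0443) and with only the compared groups (0.0491). Ep2 was higher than Ep1 by 0.14 (adjusted p = 0.0325), and this call was lost without Ep1 replicate 2 (0.123), Ep2 replicate 2 (0.0901) or Ep2 replicate 3 (0.0686). The same call was also lost with no filter (0.0702) and with only the compared groups (0.0556).

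The remaining subunits showed smaller or less stable differences. Nfkb1, which encodes p105, the precursor of p50 (ENSMUSG00000028163, chr3:135584655-135691547, - strand), measured 11.5, 11.3 and 11.1 FPKM in the Ctrl libraries, 12.6, 11.0 and 11.3 in those of Ep1 and 12.2, 12.5 and 12.8 in those of Ep2. All Ep2 libraries were above all Ctrl libraries, but 1 Ep1 library lay among those of Ep2. The log2 difference of Ep2 from Ctrl was 0.14 (interval 0.02 to 0.26, adjusted p = 0.056), and that of Ep1 from Ctrl was 0.04 (adjusted p = 0.643).

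Relb encodes RelB, the partner of p52 in the non-canonical pathway (ENSMUSG00000002983, chr7:19606217-19629438, - strand). It measured 7.97, 8.46 and 7.90 FPKM in the Ctrl libraries, 9.55, 8.81 and 7.86 in those of Ep1 and 6.04, 7.40 and 7.21 in those of Ep2. The Ep2 libraries were below all others, and the Ep1 libraries spanned the Ctrl range. Relb was lower in Ep2 than in Ep1, with a log2 difference of -0.31 (SE 0.0828, adjusted p = 0.0143) that missed the threshold without Ep1 replicate 1 (0.0522). Its difference from Ctrl was -0.21 in Ep2 (interval -0.40 to -0.03, adjusted p = 0.0542) and 0.09 in Ep1 (adjusted p = 0.489).

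Rel encodes c-Rel, the subunit best known from lymphocytes (ENSMUSG00000020275, chr11:23736847-23770970, - strand), and was the weakest subunit here on the FPKM scale. It measured 4.17, 3.64 and 4.26 FPKM in the Ctrl libraries, 5.74, 5.16 and 5.55 in those of Ep1 and 4.25, 4.76 and 5.81 in those of Ep2. Every Ep1 library was above every Ctrl library, whereas Ep2 spread over both ranges. Rel was higher in Ep1 than in Ctrl by 0.37 on the log2 scale (SE 0.0945, adjusted p = 0.038), or 36.2% of the Ctrl mean. This call was lost in each of the 6 fits that left out 1 library, with an adjusted p of 0.0573 to 0.144. The difference of Ep2 from Ctrl was 0.24 (adjusted p = 0.0606), and it was called without Ep2 replicate 1 (0.0133).

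Among the IκB genes, Nfkbib and Nfkbie fell in Ep2, while Nfkbia was lowest in Ep1. Nfkbia encodes IκBα, the inhibitor that is degraded and resynthesized within the canonical response (ENSMUSG00000021025, chr12:55489410-55492647, - strand). It measured 48.4, 51.1 and 48.2 FPKM in the Ctrl libraries, 44.0, 40.4 and 39.4 in those of Ep1 and 56.0, 45.8 and 46.3 in those of Ep2. All Ep1 libraries were below all others, and Ep2 replicate 1 was the highest of the 9 libraries. The difference of Ep1 from Ctrl was -0.25 (SE 0.0767, interval -0.42 to -0.08) and missed the threshold (adjusted p = 0.0636), but it was called when only the compared groups were fitted (0.017), with a filter at 5 FPKM (0.0421) and with voom on the recovered fragments (0.0187). The mean in Ep2 was 49.4 ± 5.75 FPKM against 49.3 ± 1.62 in Ctrl (SD, n = 3), and the interval of this log2 difference ran from -0.17 to 0.17 (adjusted p = 0.985, with a sign that turned under median centring and voom). Nfkbia was higher in Ep2 than in Ep1 by 0.25 (adjusted p = 0.0254), a call that was lost without Ep1 replicate 2 (0.0753) or Ep1 replicate 3 (0.089). The same call was also lost with no filter (0.0724) and with only the compared groups (0.0535).

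Nfkbib encodes IκBβ, a second cytoplasmic inhibitor of RelA and c-Rel dimers (ENSMUSG00000030595, chr7:28758251-28767512, - strand). It measured 17.9, 19.4 and 17.3 FPKM in the Ctrl libraries, 18.0, 18.6 and 18.1 in those of Ep1 and 14.1, 13.3 and 11.6 in those of Ep2. The Ep2 libraries were all below the other 6, and those of Ep1 lay within the Ctrl range. The mean fell from 18.2 ± 1.06 in Ctrl to 13.0 ± 1.27 in Ep2 (SD, n = 3), a difference of -28.5%. On the log2 scale the difference of Ep2 was -0.46 from Ctrl (SE 0.0687, adjusted p = 0.000454) and -0.46 from Ep1 (adjusted p = 0.000616), while that of Ep1 from Ctrl was 0.01 (interval -0.15 to 0.16, adjusted p = 0.961), a value whose sign turned under median centring and voom. Both calls of Ep2 were made in every fit that left out 1 library. Nfkbib shares 778 bases with Sirt2 on the opposite strand, whose mean was 7.17 FPKM for Ctrl, 7.19 for Ep1 and 10.5 for Ep2. Whether fragments were counted by strand is not given in the sources used here, so fragments of the shared bases could belong to either gene.

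Nfkbie encodes IκBε, a further cytoplasmic inhibitor and a known feedback target of NF-κB (ENSMUSG00000023947, chr17:45555703-45563169, + strand). It measured 4.56, 5.20 and 4.92 FPKM in the Ctrl libraries, 3.57, 3.96 and 3.66 in those of Ep1 and 3.62, 2.67 and 3.10 in those of Ep2. All treated libraries were below all Ctrl libraries, and Ep1 and Ep2 overlapped. The mean was 4.90 ± 0.321 for Ctrl, 3.73 ± 0.199 for Ep1 and 3.13 ± 0.476 for Ep2 (SD, n = 3). In Ep2 the log2 difference from Ctrl was -0.52 (SE 0.0857, adjusted p = 0.000799), or -36.1% between the means, and it was called in all 6 fits without 1 library. In Ep1 it was -0.32 (SE 0.0857, adjusted p = 0.0449), and each of the 6 omissions ended this call (0.0696 to 0.16). The difference of Ep2 from Ep1 was -0.20 (adjusted p = 0.0839).

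Tnfaip3 and Bcl3 regulate the pathway in other ways. Tnfaip3 encodes A20, an enzyme that edits ubiquitin chains and shuts down signalling from the TNF receptor (ENSMUSG00000019850, chr10:19000910-19015657, - strand). It measured 0.746, 0.707 and 0.753 FPKM in the Ctrl libraries, 0.675, 0.487 and 0.388 in those of Ep1 and 1.16, 0.710 and 0.758 in those of Ep2. The Ep1 libraries were below all others, and only Ep2 replicate 1 exceeded 1 FPKM. With 52 to 160 fragments per library it stayed under the filter and had no test in the main comparison. With voom on the recovered fragments, Ep2 exceeded Ep1 by 0.80 on the log2 scale of voom (adjusted p = 0.00625). With no filter on low values, the same difference was 0.30 on the log2(FPKM + 1) scale (adjusted p = 0.107). The voom differences from Ctrl were -0.56 in Ep1 (adjusted p = 0.104) and 0.25 in Ep2 (adjusted p = 0.312).

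Bcl3 encodes a nuclear IκB-like protein that binds p50 and p52 dimers (ENSMUSG00000053175, chr7:19808462-19822770, - strand) and lies 179 kb from Relb. It measured 7.59, 7.62 and 6.79 FPKM in the Ctrl libraries, 5.93, 5.78 and 5.09 in those of Ep1 and 6.80, 5.31 and 6.45 in those of Ep2. Ep1 lay below Ctrl without overlap, and Ep2 overlapped both groups. Bcl3 was lower in Ep1 than in Ctrl, with a log2 difference of -0.34 (SE 0.0877, adjusted p = 0.0405), and the call was kept without Ctrl replicate 3 (0.0477) but lost without any 1 of the other 5 libraries, at up to 0.142. In Ep2 the difference from Ctrl was -0.22 (adjusted p = 0.0616), which was called without Ep2 replicate 1 (0.0257). Bcl3 overlaps the antisense gene Gm16174, with a mean of 1.95, 1.42 and 1.97 FPKM in Ctrl, Ep1 and Ep2.

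**Figure D2:**
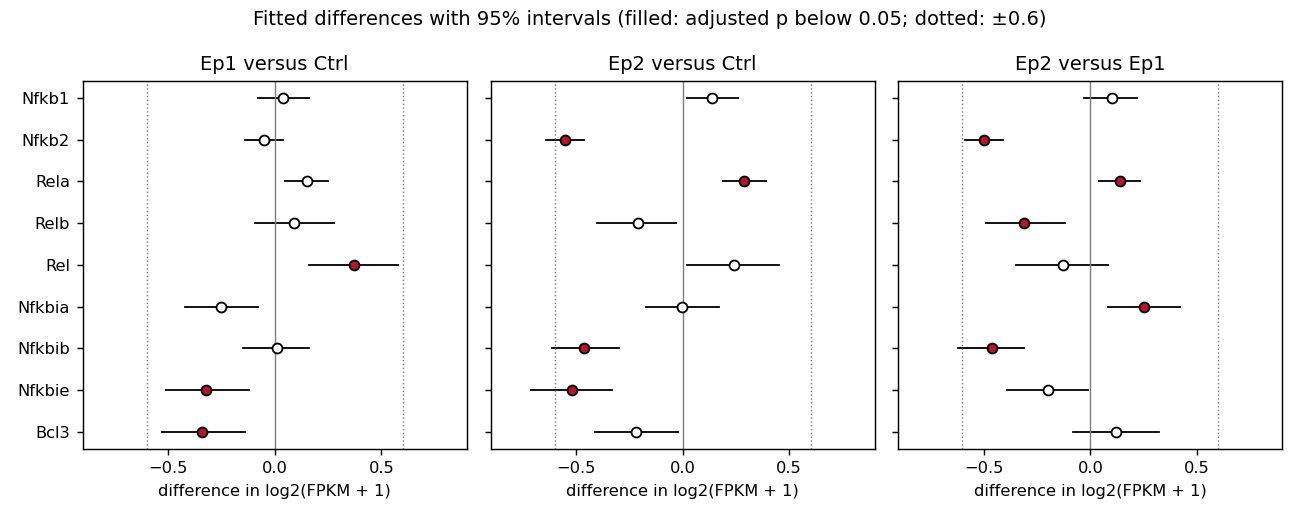
Fitted differences in log2(FPKM + 1) of the 9 tested genes with 95% intervals in the 3 comparisons, filled where the adjusted p-value was below 0.05, with dotted lines at 0.6 in both directions. In Ep2 against Ctrl, Rela lies to the right (0.29) and Nfkb2, Nfkbib and Nfkbie to the left (-0.55, -0.46 and -0.52), and no point passes the dotted lines.

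Counted together, 9 of the 10 genes were tested, each of them above 1 FPKM in every library. In Ep1 against Ctrl, 3 of the 9 were called (33.3%), with Rel higher and Nfkbie and Bcl3 lower, where 11.3% of all tested genes were called (6.32% higher and 4.97% lower). This count was 0 without Ctrl replicate 1 or 2 or Ep1 replicate 1 or 3, and 1 without Ctrl replicate 3 or Ep1 replicate 2. The gene called was Bcl3 without Ctrl replicate 3 and Rela, higher in Ep1, without Ep1 replicate 2. In Ep2 against Ctrl, 4 of the 9 were called (44.4%), with Rela higher and Nfkb2, Nfkbib and Nfkbie lower, where 53.2% of all tested genes were called (23.9% higher and 29.3% lower). When each library was centred on its median, Nfkb1 and Rel passed the threshold as well, so that 3 genes were higher and 3 lower. Over all tested genes, 2800 calls were higher and 3436 lower in Ep2 against Ctrl. These counts were 3311 and 2971 after median centring and 3565 and 3484 with voom. In Ep2 against Ep1, 5 of the 9 were called (55.6%), with Rela and Nfkbia higher and Nfkb2, Relb and Nfkbib lower, where 44.0% of all tested genes were called (18.8% higher and 25.2% lower). Over all tested genes this last comparison held 2206 higher and 2950 lower calls, but 2974 and 2383 after median centring and 3107 and 2774 with voom, and for the 9 genes the split was 3 and 3 in both of these fits, with Tnfaip3 called as higher in addition by voom. These shares rest on few genes, and that in Ep2 against Ctrl moved with the fit, to 66.7% of the members against 53.6% of all genes after median centring and to 7 of 10 members against 7049 of 14112 genes with voom, which also tested Tnfaip3. In the main fit none of the 9 passed an absolute log2 difference of 0.6 in addition, as 0.793%, 9.17% and 5.9% of all tested genes did in the same order of comparisons. This depended on the pseudocount of 1 for Nfkbie. Its called difference of Ep2 from Ctrl was -0.64 with a pseudocount of 0.1 and -0.63 with voom. The libraries did not overlap for 6 of the 10 genes in each comparison, where the same held for 41.3%, 59.7% and 54.4% of the tested genes. In Ep1 against Ctrl and in Ep2 against Ep1, these 6 included Tnfaip3, which is not among the tested genes. The median log2 difference of the 9 genes was 0.01 in Ep1 and -0.21 in Ep2 against Ctrl, beside -0.01 and -0.03 over all tested genes.

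The genes called in Ep2 went in both directions, and the ratios between members differed between the groups. The ratio of Rela to Nfkb2 FPKM lay between 0.826 and 0.928 in the Ctrl libraries, between 0.981 and 1.06 in Ep1 and between 1.54 and 1.64 in Ep2. The 3 groups did not overlap in this ratio, whose mean was 0.877 ± 0.0509 for Ctrl, 1.01 ± 0.0424 for Ep1 and 1.59 ± 0.0529 for Ep2 (SD, n = 3). The summed FPKM of the 3 inhibitors over that of the 5 subunits was 0.744 ± 0.0274 for Ctrl, 0.618 ± 0.0173 for Ep1 and 0.704 ± 0.0945 for Ep2. Ep1 lay below Ctrl in every library, whereas Ep2 spread from 0.64 to 0.812, with replicate 1 at the upper end. With canonical transcript lengths, the means of this second ratio were 0.890, 0.742 and 0.751, so how near Ep2 lies to Ep1 depends on the lengths. The first ratio pairs the subunit called higher in Ep2 with the one called lower, so its rise in Ep2 follows from those calls. These ratios are descriptions of RNA and carry no test, since the genes were chosen with earlier results known. In the bulk RNA of a culture, fewer cells with a transcript and less of it per cell cannot be told apart.

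**Figure D3:**
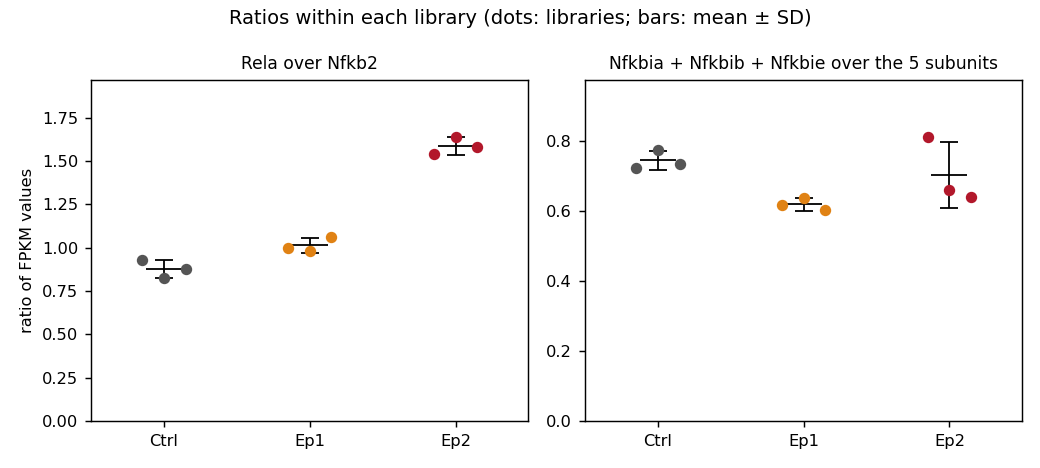
Ratios of FPKM within each library (dots) with the mean and SD of each group, for Rela over Nfkb2 on the left and for the summed inhibitors over the summed subunits on the right, both axes starting at 0. The first ratio, of subunits with opposite calls in Ep2, has means of 0.877, 1.01 and 1.59. In the second, Ep2 replicate 1 (0.812) stands apart from the other Ep2 libraries.

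Ep2 replicate 1 was the highest Ep2 library for 5 members (Nfkbia, Nfkbib, Nfkbie, Tnfaip3 and Bcl3) and the lowest for 4 (Nfkb1, Rela, Relb and Rel). Such counts were not particular to it, since Ep1 replicate 1 was highest for 7 and lowest for 2 members and Ctrl replicate 2 highest for 6 and lowest for 3. Without Ep2 replicate 1, the calls of Nfkb2, Rela, Nfkbib and Nfkbie in Ep2 against Ctrl remained, and those of Rel and Bcl3 were added.

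On the log2(FPKM + 1) scale Nfkb2 had the greatest difference of the genes called in Ep2, whereas Nfkbie led with a pseudocount of 0.1 (-0.64 against -0.56) and with voom (-0.63 against -0.54). The profile of Nfkb2 was compared with those of all tested genes over the 9 libraries. The 3 genes with the smallest root mean square difference from its centred log2(FPKM + 1) profile were Ccp110 (0.0384), a regulator of centrioles, Tubgcp2 (0.0402), a component of the γ-tubulin complex, and Polq (0.0405), a DNA repair polymerase, against a median of 0.274 over tested genes. Among the members, Nfkbib came nearest, at 0.0839 (position 244 of the tested genes), and Rela was the farthest, at 0.359.

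Around the members, 102 further genes of the pathway were taken from 5 lists, and 79 of them were tested. Of the 24 kinases and adaptors upstream of NF-κB, all tested, 10 rose and 1 fell in Ep2 against Ctrl (45.8% called, beside 53.2% of all tested genes), with a median log2 difference of -0.01, and 3 rose and 1 fell in Ep1 (16.7%, beside 11.3%). Ikbkg, which encodes the scaffold NEMO of the IκB kinase, rose from 10.0 ± 0.752 to 15.7 ± 0.287 FPKM in Ep2 (0.60 on the log2 scale, adjusted p = 3.27e-05). Traf6, a ubiquitin ligase behind Toll-like and interleukin-1 receptors, rose at both doses, by 0.27 in Ep1 (adjusted p = 0.00989) and 0.41 in Ep2 (adjusted p = 5.94e-05). The kinase gene Tbk1 rose by 0.29 and 0.44, and Bcl10, an adaptor, by 0.29 and 0.23. Card10, a partner of Bcl10, fell in Ep1 by 0.30 on the log2 scale, and Map3k14, the kinase NIK of the non-canonical pathway, fell in Ep2 by 0.26. Of 19 further inhibitors, ubiquitin editors and regulators of IκB degradation, 16 were tested, and 6 fell and 3 rose in Ep2 (56.2%, with a median of 0.0013), while 3 fell and 2 rose in Ep1 (31.2%). Rbck1, a subunit of the linear ubiquitin ligase complex LUBAC, fell from 48.1 ± 2.51 in Ctrl to 41.5 ± 1.73 in Ep1 and 31.6 ± 1.47 FPKM in Ep2, and Otulin, which removes linear chains, fell from 39.9 ± 0.788 to 34.3 ± 1.54 and 30.1 ± 1.16. Rnf31, the catalytic subunit of LUBAC, fell in Ep1 (-0.29), Nfkbil1 fell in Ep2 (-0.58), the deubiquitinase Cyld rose at both doses (0.23 and 0.25), Tax1bp1 also did (0.19 and 0.23), and Fbxw11, a receptor for phosphorylated IκB, rose in Ep2 (0.16).

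Of 17 receptors that feed the pathway, 12 were tested, and 7 rose and none fell in Ep2 against Ctrl. The share called was 58.3%, beside 53.2% of all tested genes called and 23.9% called higher. The median log2 difference of the 12 was 0.22, beside -0.03 over all tested genes. In Ep1 limma called none of the 12, with 4 at an unadjusted p below 0.05, and voom called 2. Between Ep2 and Ep1, 8 of the 12 receptors were called, all higher in Ep2 (66.7%), beside 44.0% of all tested genes called and 18.8% called higher. Tlr4, the receptor for lipopolysaccharide, rose from 8.01 ± 0.278 to 14.5 ± 1.04 FPKM (0.78, adjusted p = 1.02e-05), and its difference between Ep2 and Ep1 was 0.64 (adjusted p = 4.34e-05). Il1r1 and Tnfrsf1a, receptors for interleukin-1 and TNF, rose in Ep2 by 0.38 and 0.30. Of 10 ligands, 2 were tested, and Il18 fell in Ep2 (-0.45), while Tnf and Il1b had at most 2 fragments in any library. The alarmin gene Il33, named after its values were seen, stayed under the filter with 18 to 52 fragments, at 0.467, 0.319 and 0.448 FPKM in the Ctrl libraries and 0.927, 0.963 and 0.856 in those of Ep2. Without a filter its log2 difference in Ep2 was 0.44 (limma adjusted p = 0.00421), and with voom it was 1.18 (adjusted p = 0.0008). Of 36 textbook target genes outside the members, 29 were tested. In Ep2, 10 rose and 3 fell (44.8%, with a median of 0.06), while 4 rose and 3 fell in Ep1 (24.1%, with a median of -0.05). Over all tested genes the shares called were 53.2% in Ep2 and 11.3% in Ep1. Sele, the adhesion molecule E-selectin, rose from 7.07 ± 0.465 in Ctrl to 10.6 ± 1.01 in Ep1 and 13.6 ± 1.07 FPKM in Ep2 (adjusted p = 0.00873 and 2.97e-05 in limma). Cflar, an inhibitor of caspase 8, rose by 0.33 and 0.64, the hyaluronan receptor gene Cd44 by 0.23 and 0.19, and the chemokine gene Ccl7 by 0.63 in Ep2. The macrophage growth factor gene Csf1, the transcription factor gene Irf1 and the stress gene Gadd45b fell in Ep1 (-0.34, -0.32 and -0.30), and their differences in Ep2 were 0.03, -0.11 and -0.03 with no call. Sod2, the mitochondrial superoxide dismutase, Ninj1, a membrane protein of lytic cell death, and Psmb9, an immunoproteasome subunit, fell in Ep2 (-0.30, -0.30 and -0.52). Ptgs2, which encodes COX-2 and was named after its values were seen, had the highest log2 difference of the targets in Ep1 (0.98, adjusted p = 0.0322), where its libraries held 96.4, 58.9 and 59.9 FPKM against 32.6, 36.0 and 36.1 in Ctrl. Ptgs2 was also called in Ep2 (0.85, limma adjusted p = 0.0126), at 54.4, 56.7 and 83.4 FPKM. Its difference of Ep2 from Ep1 was -0.13 (adjusted p = 0.66).

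**Figure D4:**
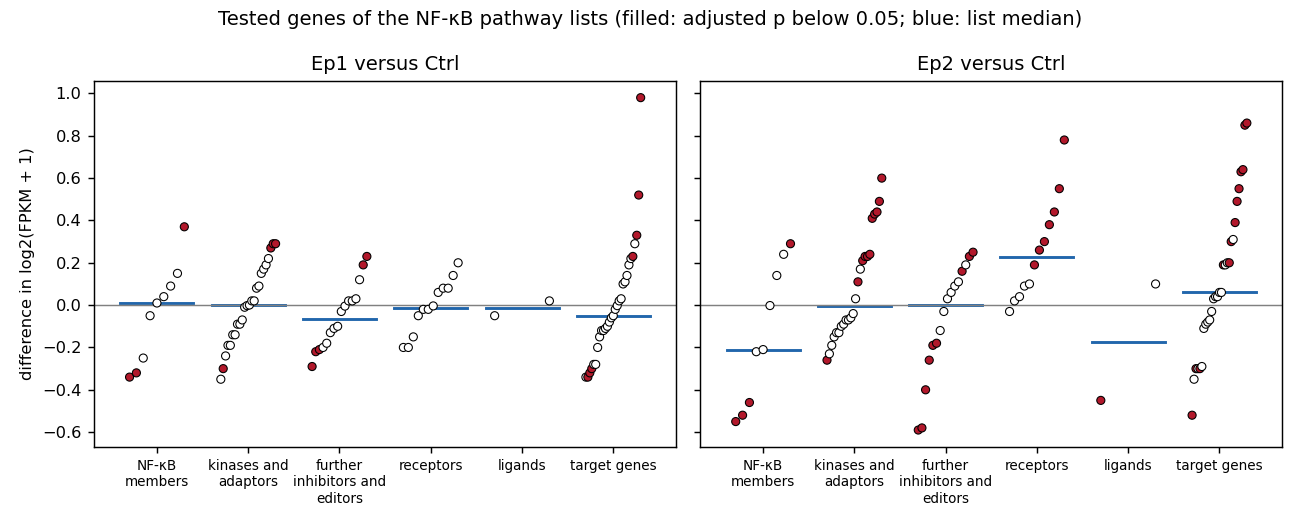
Differences in log2(FPKM + 1) from Ctrl for the tested NF-κB genes and the tested genes of 5 pathway lists, in Ep1 (left) and Ep2 (right), one dot per gene, filled where the adjusted p-value was below 0.05, with the median of each list in blue. In Ep2 all 7 filled receptor genes lie above 0, and the medians are 0.22 for receptors and -0.21 for the NF-κB genes. Over all tested genes, 53.2% were called in Ep2 and 23.9% were called higher.

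Over the 5 lists, 16 of 79 tested genes (20.3%) were called in Ep1 and 39 (49.4%) in Ep2, beside backgrounds of 11.3% and 53.2%. Leaving out Ctrl replicate 1 or 2 turned the 16 calls into 5 or 3, and leaving out Ep1 replicate 1 or 3 turned them into 6 or 2, whereas the 39 became 32 to 41. Among the pathway genes given by the naming rule for Ep1, Sele and Csf1 were called in each fit without 1 library.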

How the data were processed

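The authors deposited FPKM values per gene for 9 libraries of B.END3 cells, with a length for each of 54532 genes. They ran paired-end sequencing and aligned the reads to the mouse genome, with replicates not pooled. The methods name GRCm39, and the submitters' processing notes list Bowtie 0.12.2 and mm8. Of 36526 genes compared by name or identifier, 99.9% of the listed positions overlapped the gene on GRCm38 and 12.4% on GRCm39, so positions here refer to GRCm38. The tool that counted fragments and its use of strand are not given in the sources used here. The growth protocol calls the line a rat line, while the organism is given as mouse. FPKM multiplied by length gave whole multiples of 1 step per library (tolerance 0.05), which gave fragments per gene. A count of 0 allows up to 3 fragments, for counting error only, and the spread between libraries exceeded counting noise.

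Groups follow the library names. From the deposited FPKM values, log2(FPKM + 1) was fitted with limma 3.58.1 in R 4.3.3 (lmFit, eBayes with trend and robust estimation, all 9 libraries, no covariate) for genes with at least 1 FPKM in at least 3 libraries, with Benjamini-Hochberg adjustment over all tested genes within each comparison. The pseudocount of 1 draws the differences of weak genes towards 0. Alternatives were median centring, no filter, a filter at 5 FPKM, the replicate number as a block, a pseudocount of 0.1, the 2 compared groups fitted alone, voom on recovered fragments (14112 genes, each with 10 or more fragments in 3 or more libraries), a minimum log2 difference of 0.6 and the omission of each replicate. Canonical transcript lengths (GENCODE M39) were added after the listed lengths were seen. They were set under fragments counted on the deposited gene models, whose exons may differ. Simulated data were used to test the scripts. The members and the lists were chosen with earlier results of these data known. Named were all members, up to 3 genes per list and direction with the smallest adjusted p-value below 0.05 in each comparison with Ctrl, and the 3 genes nearest to the profile of the member with the greatest called log2(FPKM + 1) difference in Ep2. Promoter windows came from RefSeq (GRCm38.p6) and were matched by gene symbol. Tables and figures were made in Python 3.11.15 with pandas 2.3.3, matplotlib 3.10.9, numpy 2.4.6 and scipy 1.17.1.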

Additional observations from a re-analysis of the deposited data

Results flagged for a closer look

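For 5 of the 9 tested genes the response differed between the doses, by the limma test of Ep2 against Ep1, which equals the test of the difference between both responses because the Ctrl libraries are shared. The log2 difference of Ep2 from Ep1 was -0.50 for Nfkb2, -0.46 for Nfkbib and -0.31 for Relb, and it was 0.14 for Rela and 0.25 for Nfkbia. The calls of Nfkb2 and Nfkbib were made in every fit that left out 1 library, while the other 3 each depended on at least 1 library, as given above. Those of Rela and Nfkbia also depended on the filter and on the groups fitted. In this comparison 44.0% of all tested genes were called.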

How the results depend on the processing

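In Ep2 against Ctrl, the calls of Nfkb2, Rela, Nfkbib and Nfkbie held in every fit run, the omission of each library included, except under a minimum log2 difference of 0.6, while Nfkbie was not tested with the filter at 5 FPKM. The number of NF-κB genes called in Ep1 was 0 with no filter, 1 with the replicate block, 5 in a fit of only the 2 groups and 0 with the minimum difference. It was 7 in Ep2 with voom and 0 with the minimum difference. For Ep2 against Ep1 it was 3 with no filter, 3 with only the 2 groups and 0 with the minimum difference. Without 1 library, it ranged from 0 to 1 in Ep1, from 4 to 6 in Ep2 and from 3 to 6 between them. Same-numbered libraries showed no clear shared deviation (correlations from -0.056 to 0.074), while Ep1 replicate 1 and Ep2 replicate 3 reached 0.153. Each deviation was taken from a mean of only 3 libraries, so these values cannot exclude that replicate numbers pair the samples. The replicate block ended the calls of Nfkbie and Bcl3 in Ep1.

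Over all tested genes, Ep1 gave 396 calls with no filter, 2162 with only the 2 groups, 1995 with voom and 93 with the minimum difference, Ep2 gave 1075 with the minimum difference, and Ep2 against Ep1 gave 692. Without 1 library these counts ranged from 191 to 1034, from 5356 to 6442 and from 4115 to 5227. The pathway lists gave 5 calls in Ep1 with no filter, and 1, 6 and 4 with the minimum difference in Ep1, Ep2 and Ep2 against Ep1. Without 1 library they ranged from 2 to 13, 32 to 41 and 25 to 35.

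Signs turned for differences near 0. That of Nfkbib in Ep1 was -0.0024 with median centring, -0.01 with voom, and -0.0037, -0.03 and -0.01 without Ctrl replicate 1, Ctrl replicate 3 or Ep1 replicate 2. That of Nfkbia in Ep2 was 0.04 with centring, 0.02 with voom, and 0.02, 0.05 and 0.04 without Ctrl replicate 2, Ep2 replicate 2 or Ep2 replicate 3, in a range of -0.09 to 0.05 over the fits without 1 library. That of Nfkb1 in Ep1 was -0.01 without Ep1 replicate 1, in a range of -0.01 to 0.08. With canonical transcript lengths, the levels in Ctrl were 29.1 for Nfkb1, 19.3 for Nfkb2, 9.37 for Relb, 29.1 for Nfkbib, 6.12 for Nfkbie, 0.777 for Tnfaip3 and 9.08 for Bcl3, and the ratio of inhibitors to subunits was 0.89 in Ctrl and 0.742 in Ep1. The causes of these changes were not tested. Depth limits Tnfaip3 most, with as few as 52 fragments.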
